A study of Mus musculus with 12 samples.

Results

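Chemokines, the small secreted proteins that direct the migration of leukocytes, and their receptors were followed gene by gene in the lungs of newborn mice with 1 inactivated copy of Foxf1. A gene was a member when its array symbol began with Ccl, Cxcl, Ccr, Cxcr, Cx3c or Ackr followed by a number or by l1 or r1, with Ccl21a, Ccl21c, Cxcl12, Cxcr4, Ackr2 and Ackr3 left out. The rule gave 50 genes on 73 probes of the 45263 intact probes of the array, and each gene was represented by the probe with the highest mean over the 12 arrays of the authors' processed values. The 50 genes are 32 ligands and 18 receptors. All 50 matched a RefSeq mouse gene by Entrez ID with the same symbol.

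Whole lungs were taken at postnatal day 0.5 from 6 Foxf1+/- pups and from 6 wildtype littermates, both on a 129/C57BL6/J mixed background. RNA of each lung was run on a separate bead array (Illumina MouseWG-6 v2.0), on which the brightness of a probe reports the abundance of its transcript. The inactivated Foxf1 allele lacks the first exon, which had been deleted with EIIa-Cre, a recombinase active in the early embryo, so the loss is not confined to 1 cell type. The labels name no treatment for either group. The comparison asks which chemokine transcripts differ between a newborn lung with less Foxf1, a transcription factor of lung mesenchyme and endothelium, and a wildtype lung.

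Chemokines are grouped by the spacing of their conserved cysteines into CC, CXC and CX3C ligands, and they act on receptors that couple to inhibitory G proteins. Some are made only on demand, after NF-kB or interferon signals, and others are made constantly to position cells in a tissue. In the lung, airway and alveolar epithelium, vessel walls and resident macrophages are all known sources. Atypical receptors bind chemokines without G protein signalling and clear or transport them.

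Signals are given on a log2 scale after background correction and quantile normalization, and values near 6 lie at the floor of the arrays. The median raw signal per array was 57.3 to 89.3, and precision is limited by how many arrays there are. The study ran the arrays in 2 experiments that the labels do not name. They were inferred from raw signal percentiles as experiment A, with 2 wildtype and 4 Foxf1+/- arrays, and experiment B, with 4 wildtype and 2 Foxf1+/- arrays. Fold changes are fitted log2 values of Foxf1+/- over wildtype ± SE, with experiment as a block, and adjusted p-values are limma's after Benjamini-Hochberg adjustment over all 33947 probes kept. Foxf1 fell by 0.999 ± 0.13 in the fit with the experiment block (adjusted p = 0.00224). Its unblocked means were 11.56 ± 0.376 in wildtype and 10.83 ± 0.553 in Foxf1+/- lungs (mean ± SD, 6 arrays each). Its call was lost without the experiment block (−0.73, adjusted p = 0.184), and an exact two-sided permutation test of that difference in means, which takes no account of experiment, gave p = 0.0216. Where the Foxf1 probe lies relative to the deleted exon is not known here. The array of wildtype replicate 5 stood apart. It had the highest level of T and NK cell, thymocyte, thymic epithelial and squamous epithelial markers of all 12, and it read highest for 7 of the 21 members above the floor limit. Its level was also highest for brown fat (8.85, at most 8.46 elsewhere), dendritic cell (7.07, at most 6.98) and macrophage markers (9.20, at most 9.17). Squamous epithelial signal was not confined to that array. The marker Krt13 read 10.64 to 12.47 in wildtype replicates 1 to 5, and 11.08 and 11.47 in Foxf1+/- replicates 4 and 6. In the remaining arrays Krt13 read 6.17 to 6.49, so this signal was spread unevenly between the genotypes. The skeletal muscle marker Myh8 read 10.72 to 12.34 in the same arrays in which Krt13 was high, and 7.25 to 9.79 in the rest. The part of these tissues in the member values was not tested. P-values measure the spread between these lungs.

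Of the 50 members, 39 passed the filter on dim probes and were tested, 28 ligands and 11 receptors. The other 11 (Ccl1, Ccl28, Cxcl3, Cxcl11, Ccr1, Ccr1l1, Ccr3, Ccr9, Ccr10, Cxcr1 and Cxcr6) lay at the floor and have no test. Of the 39, 21 had a mean at or above a floor limit of 6.51, and the fold changes of the 18 dimmer members are damped and uncertain in size. With 1 member called of 39 (Ccl9, higher), the family stood beside 2.97% of all probes tested, 1.74% being higher and 1.22% lower. An unadjusted p under 0.05 was found for 3 higher members (Ccl9, Ccr8 and Cxcl1) and 4 lower ones (Cxcr5, Ccl5, Ccr6 and Ccl11), beside 9.07% and 7.45% of all probes (16.5% in either direction). The fitted fold change was above 0 in 12 members and below 0 in 27, with a median of −0.04 over the 39 and −0.07 over the 21 brighter ones, and the median of all probes was 0.00. Of the 39, 19 changed sign under at least 1 alternative way of processing or with 1 array left out. The 95% interval excluded a 2-fold change in signal either way in 38 of the 39 members (all but Ccl25) and a 1.5-fold change in 35. Among the 21 brighter members these counts were 20 and 17. The intervals describe a change in signal, which is damped in the 18 dimmer members. Damping does not stop at the limit, and some of the 21 lay just above it, such as Ccl19 with a mean of 6.59. The intervals therefore do not bound the change in transcript.

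**Figure D1:**
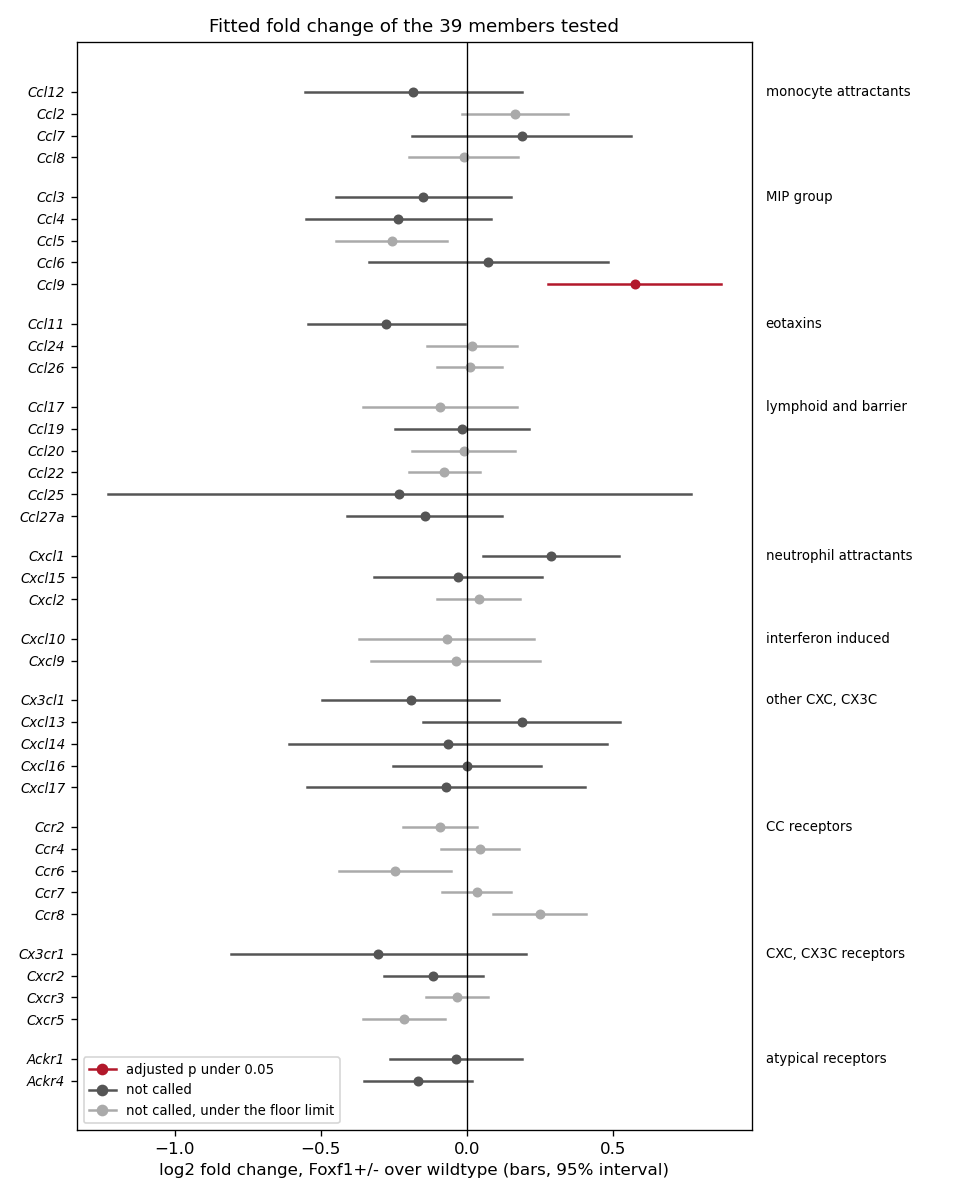
Fitted log2 fold change of Foxf1+/- over wildtype (x axis) for the 39 members tested, in role groups, with bars for the 95% interval and grey for probes under the floor limit of 6.51. Ccl9, in red, is the member called (0.58 ± 0.14), and Ccl25 has the widest interval, from −1.23 to 0.77.

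**Figure D2:**
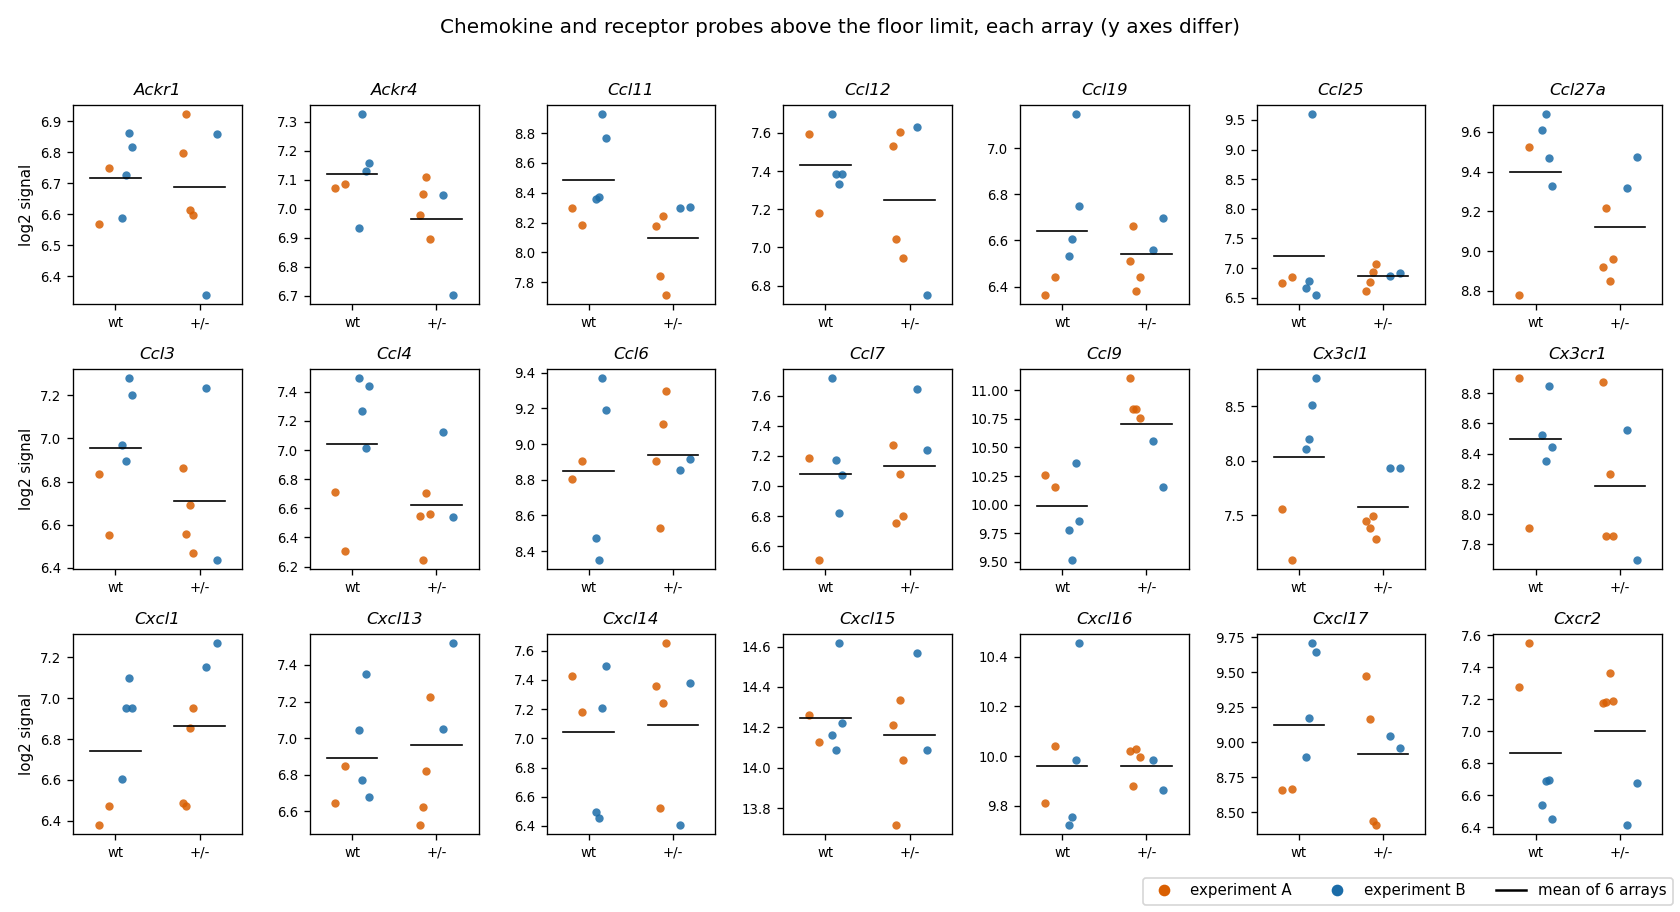
Log2 signal of the 21 members above the floor limit in each of the 12 arrays (y axes differ between panels), with points coloured by array experiment and a line at the mean of each genotype. The Foxf1+/- arrays of Ccl9 reach from 10.15 to 11.10 and the wildtype arrays from 9.52 to 10.37, and the wildtype point of Ccl25 at 9.61 is replicate 5.

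Ccl9, a macrophage inflammatory protein of rodents (MIP-1 gamma) that acts through Ccr1, was the member that rose. Its lowest, median and highest log2 signals were 9.52, 10.01 and 10.37 in wildtype and 10.15, 10.80 and 11.10 in Foxf1+/- lungs, so the groups overlapped between 10.15 and 10.37. The fold change was 0.58 ± 0.14 (95% interval 0.28 to 0.87, adjusted p = 0.0429), a 1.49-fold higher signal. Within experiment A all 4 Foxf1+/- arrays (10.76 to 11.10) lay above both wildtype arrays (10.15 and 10.26), with a change of 0.68 (adjusted p = 0.149). Within experiment B the change was 0.47 (adjusted p = 0.458), and the 2 Foxf1+/- arrays, at 10.15 and 10.55, fell on either side of wildtype replicate 5 at 10.37. A test for a difference between these changes gave −0.20 (unadjusted p = 0.485).

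The call of Ccl9 lay close to the threshold. It was lost when any 1 of the 11 arrays other than wildtype replicate 5 was left out, with adjusted p-values from 0.0518 without Foxf1+/- replicate 6 to 0.141 without Foxf1+/- replicate 5, and it was stronger without wildtype replicate 5 (0.66 ± 0.10, adjusted p = 0.00458). It was lost with median scaling (0.0642), without the filter (0.0538), without the experiment block (0.0623) and with the replicate number as a block (0.0503), while the fold change stayed between 0.52 and 0.72 under every alternative tried. A change in the number of cells of a type and a change in RNA per cell cannot be told apart in whole lung. Of the 11 macrophage markers tested, 0 passed (limma; unadjusted p under 0.05 in 1, higher), and their mean log2 level was 8.91 to 9.20 in wildtype and 8.93 to 9.17 in Foxf1+/- lungs. Of the 10 mast cell markers, 6 were called higher and Kit lower, beside 1.74% and 1.22% of all probes. Their level was 8.39 to 8.62 in wildtype and 9.57 to 9.89 in Foxf1+/- lungs, and 1 of the 10 was under the floor limit. The part of mast cells in the Ccl9 signal was not tested.

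**Figure D3:**
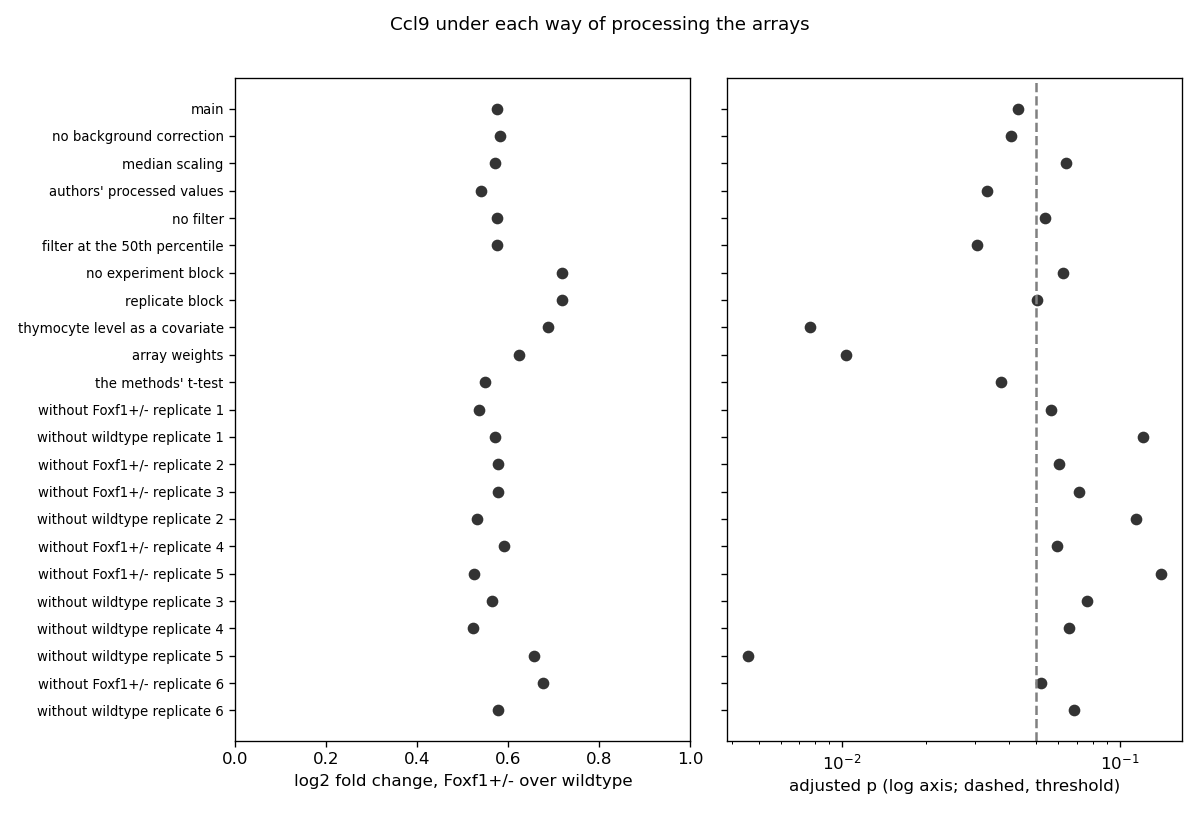
Ccl9 under each way of processing the arrays, with the log2 fold change of Foxf1+/- over wildtype on the left and the adjusted p on a log axis on the right (dashed line, 0.05). The fold change stays between 0.52 and 0.72, and the adjusted p runs from 0.00458 without wildtype replicate 5 to 0.141 without Foxf1+/- replicate 5.

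Ccl9 lies on chromosome 11 in a row of 5 chemokine genes, in the order Ccl5, Ccl9, Ccl6, Ccl3 and Ccl4 of the RefSeq annotation (GRCm38.p6), and the other 4 were not called. Ccl6, a relative of Ccl9 made by macrophages and myeloid cells, read 8.35, 8.86 and 9.37 in wildtype (lowest, median, highest) and 8.53, 8.91 and 9.30 in Foxf1+/- lungs, with full overlap and a change of 0.07 ± 0.19 (95% interval −0.34 to 0.48, adjusted p = 0.902). Ccl3, which attracts monocytes and lymphocytes, read 6.55, 6.93 and 7.28 in wildtype and 6.44, 6.62 and 7.24 in Foxf1+/- lungs (−0.15 ± 0.14, adjusted p = 0.669). Ccl4, a close relative of Ccl3, read 6.31, 7.14 and 7.49 and 6.25, 6.55 and 7.12 (−0.23 ± 0.15, adjusted p = 0.480), with changes of 0.00 in A and −0.47 in B. The groups of Ccl3 and Ccl4 overlapped over most of their ranges. Ccl5 (RANTES), a T cell and eosinophil attractant, was dim, with wildtype arrays at 6.35, 6.40 and 6.74 and Foxf1+/- arrays at 6.02, 6.23 and 6.38. Its groups overlapped by a narrow margin, and its change of −0.26 ± 0.09 did not pass (unadjusted p = 0.0116, adjusted p = 0.149).

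The stretches before the start sites of Ccl9, which was called, and of its neighbour Ccl6, which was not, are shown to set the letters of both beside each other. Both are the 250 bases before the RefSeq start (GRCm38.p6, minus strand), Ccl9 at chr11:83578637-83578886 and Ccl6 at chr11:83593088-83593337. Capitals mark the AP-1 letters TGANTCA and the TATA letters TATAAA in Ccl9 and the ETS core letters AGGAAG in Ccl6, searched on both strands.
Ccl9: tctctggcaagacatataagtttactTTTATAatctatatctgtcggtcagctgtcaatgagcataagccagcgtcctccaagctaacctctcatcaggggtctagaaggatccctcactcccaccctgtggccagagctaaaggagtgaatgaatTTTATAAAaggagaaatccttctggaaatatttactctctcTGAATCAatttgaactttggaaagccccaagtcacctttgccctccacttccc
Ccl6: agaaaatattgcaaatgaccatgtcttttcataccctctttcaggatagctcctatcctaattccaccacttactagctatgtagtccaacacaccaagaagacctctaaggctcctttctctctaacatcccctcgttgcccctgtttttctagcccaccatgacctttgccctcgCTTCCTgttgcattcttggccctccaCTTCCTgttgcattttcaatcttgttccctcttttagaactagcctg
Ccl9 held 1 AP-1 match, TGAATCA, from 53 to 47 bases before the start, and 3 TATA matches, 2 of which overlap from 94 to 87 bases before it. Ccl6 held 2 ETS core matches, from 73 to 68 and from 47 to 42 bases before its start. Of all 32851 promoters of the same length, 6.75% held the AP-1, 12.4% the TATA and 29.5% the ETS core letters.

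The monocyte attractants, ligands of Ccr2 apart from Ccl8, had 0 of 4 members called by limma, and 0 at an unadjusted p under 0.05. Ccl12 (MCP-5) was above the floor limit, with wildtype arrays at 7.18, 7.39 and 7.70 and Foxf1+/- arrays at 6.75, 7.29 and 7.63 (−0.18 ± 0.17, adjusted p = 0.675). Ccl7 (MCP-3) read 6.51, 7.12 and 7.72 in wildtype and 6.75, 7.16 and 7.65 in Foxf1+/- lungs (0.19 ± 0.17, adjusted p = 0.668). The groups of both genes overlapped, and for Ccl12 3 of the 6 Foxf1+/- arrays lay below every wildtype array. Ccl2 (MCP-1), at 5.98 to 6.25 in wildtype and 6.02 to 6.47 in Foxf1+/- lungs, and Ccl8 (MCP-2), at 5.91 to 6.44 and 5.86 to 6.24, lay under the floor limit.

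Among the eotaxins, which attract eosinophils through Ccr3, Ccl11 (eotaxin-1) was well above the floor and did not pass. It read 8.18, 8.36 and 8.93 in wildtype and 7.71, 8.21 and 8.30 in Foxf1+/- lungs, and the groups overlapped between 8.18 and 8.30. The change was −0.28 ± 0.12 (unadjusted p = 0.0449, adjusted p = 0.287), with −0.25 in A and −0.31 in B. In experiment B both Foxf1+/- arrays, at 8.30, lay below all 4 wildtype arrays, and without wildtype replicate 5 the change was −0.22 (unadjusted p = 0.0678). A dimmer probe of Ccl11 gave −0.21 ± 0.10 (adjusted p = 0.316). Ccl24 and Ccl26 (eotaxin-2 and eotaxin-3) lay at the floor, between 5.90 and 6.32 in all arrays, as did the receptor Ccr3. Of the 3 eosinophil markers tested 0 passed by limma (unadjusted p under 0.05 in 1, lower), and all 4 measured, among them Prg2 and Epx, were under the floor limit.

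The lymphoid and barrier chemokines had 0 of 6 members called by limma, and 0 at an unadjusted p under 0.05. Ccl27a (CTACK), an epithelial chemokine that binds Ccr10, had wildtype arrays at 8.78, 9.50 and 9.69 and Foxf1+/- arrays at 8.85, 9.09 and 9.48 (−0.14 ± 0.12, adjusted p = 0.629). The mouse genome holds near-identical copies of this gene, so the probe may read more than Ccl27a. The arrays of both genotypes were mixed along this range, and a second probe gave −0.12 ± 0.10 (adjusted p = 0.609). Ccl19, a ligand of Ccr7 that guides T cells and dendritic cells, read 6.36, 6.57 and 7.15 in wildtype and 6.38, 6.54 and 6.70 in Foxf1+/- lungs (−0.02 ± 0.11, adjusted p = 0.964). Ccl17 (TARC) and Ccl22 (MDC), both ligands of Ccr4, and Ccl20, the ligand of Ccr6, lay between 5.92 and 6.71 in all arrays.

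Ccl25 (TECK), a ligand of Ccr9 that thymic epithelium and small intestine are known to make, was set by 1 array. The wildtype arrays read 6.54, 6.77 and 9.61 (lowest, median, highest) and the Foxf1+/- arrays 6.61, 6.89 and 7.07, and the next wildtype array below 9.61 was at 6.85. That array, wildtype replicate 5, also read highest on another Ccl25 probe, while its remaining probe stood at 6.55 there, within the range of the other 11 arrays, and had a fitted change of 0.01 ± 0.05. In the same array Rag1, the recombinase of developing lymphocytes, was at 8.40 (at most 6.36 in the other 11), Arpp21 at 9.76 (at most 7.18), Satb1 at 12.41 (at most 10.62) and the T cell receptor subunit Cd3e at 9.64 (at most 6.41). Satb1 was bright in every array (9.67 or more). Not every such marker stood out in wildtype replicate 5. Cd8b1 read 10.64, within the 10.36 to 11.54 of the other arrays, and Cd8a lay at the floor (5.90). Ptcra read 6.76, beside 6.75 in wildtype replicate 6. The mean level of the 9 thymocyte markers was 8.14 in wildtype replicate 5 and at most 7.25 elsewhere, and that of the 4 thymic epithelial markers, all under the floor limit over all arrays, was 6.38 and at most 6.20. The part of thymus tissue in the Ccl25 signal was not tested beyond these values. The fitted change of Ccl25 was −0.23 ± 0.46 (adjusted p = 0.866), and without wildtype replicate 5 it was 0.13 ± 0.09 (adjusted p = 0.513). With the thymocyte level as a covariate it was 0.33 (adjusted p = 0.0506).

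**Figure D4:**
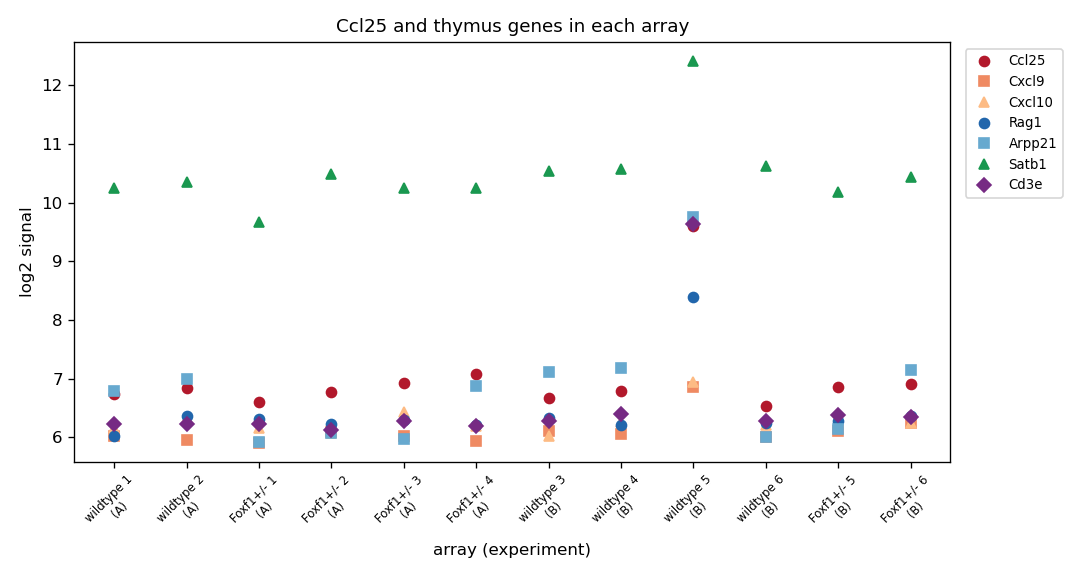
Log2 signal of Ccl25, Cxcl9 and Cxcl10 and of the thymus genes Rag1, Arpp21, Satb1 and Cd3e in each array (x axis, experiment in brackets). In wildtype replicate 5 Ccl25 reads 9.61, Cd3e 9.64 and Rag1 8.40, each above the other 11 arrays.

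The neutrophil attractants Cxcl1, Cxcl2 and Cxcl3 act through Cxcr2, while the receptor of Cxcl15 is less settled, and 0 of 3 tested passed by limma, with an unadjusted p under 0.05 in 1 (Cxcl1, higher). Cxcl15 (lungkine), which is known from the epithelium of mouse airways and alveoli, read far above the floor in every lung, at 14.09, 14.19 and 14.62 in wildtype and 13.72, 14.15 and 14.57 in Foxf1+/- lungs. The ranges overlapped between 14.09 and 14.57, 2 Foxf1+/- arrays lay below every wildtype array, and the change was −0.03 ± 0.13 (95% interval −0.32 to 0.26, adjusted p = 0.945). Cxcl1 (KC), which is induced in epithelium and endothelium by inflammatory signals, read 6.38, 6.78 and 7.10 in wildtype and 6.47, 6.90 and 7.27 in Foxf1+/- lungs. These ranges overlapped. In experiment A they met, the highest wildtype array and the lowest Foxf1+/- array both standing at 6.47 (equal to 3 decimals), and in experiment B the highest wildtype array stood at 7.10 and the lowest Foxf1+/- array at 7.16. The change of Cxcl1 was 0.29 ± 0.11 (0.26 in A, 0.31 in B, unadjusted p = 0.0195, adjusted p = 0.192), which did not pass. With the meeting values of Cxcl1 counted as apart, genotypes did not overlap within either experiment in 2 members, Cxcl1 and Cxcr5, beside 5.26% of all probes.

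Cxcl2 (MIP-2), at 6.04 to 6.14 in wildtype and 5.95 to 6.28 in Foxf1+/- lungs (0.04 ± 0.07, adjusted p = 0.834), and Cxcl3, at 5.73 to 5.89 in all arrays, lay at the floor. Cxcl1, Cxcl2 and Cxcl3 lie close together on chromosome 5 and share an NF-kB match, so their sequences are shown as the clearest common letters in the family. Each is the 120 bases before the RefSeq start (GRCm38.p6, plus strand), Cxcl1 at chr5:90891125-90891244, Cxcl2 at chr5:90903779-90903898 and Cxcl3 at chr5:90785981-90786100, with the NF-kB letters in capitals (GGGA, then 2 free bases, then TTCC, on either strand). The match reads on both strands in each gene, as 2 overlapping hits.
Cxcl1: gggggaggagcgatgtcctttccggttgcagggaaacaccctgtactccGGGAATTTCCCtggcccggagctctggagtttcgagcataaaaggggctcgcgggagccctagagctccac
Cxcl2: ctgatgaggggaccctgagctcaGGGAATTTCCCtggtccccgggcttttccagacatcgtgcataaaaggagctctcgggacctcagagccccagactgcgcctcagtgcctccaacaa
Cxcl3: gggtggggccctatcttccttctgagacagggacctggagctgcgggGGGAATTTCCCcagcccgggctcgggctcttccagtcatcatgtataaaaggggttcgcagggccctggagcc
The matches began 71 bases before the start in Cxcl1, 97 in Cxcl2 and 73 in Cxcl3. Of these 3 genes Cxcl1 was above the floor limit, and whether the letters bear on its level was not tested.

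The interferon-induced ligands of Cxcr3 were dim. Cxcl9 read 5.96, 6.05 and 6.86 in wildtype and 5.91, 6.06 and 6.25 in Foxf1+/- lungs, and Cxcl10 read 6.03, 6.24 and 6.95 and 6.07, 6.22 and 6.43. The highest value of each gene was in wildtype replicate 5, and the other arrays of both genotypes overlapped. With 2 tested, 0 were called by limma and 0 had an unadjusted p under 0.05 (Cxcl9 −0.04 ± 0.13, adjusted p = 0.929; Cxcl10 −0.07 ± 0.14, adjusted p = 0.868). Cxcl11 was at 5.81 to 6.05 in all arrays and was not tested.

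Of the remaining CXC and CX3C ligands, 0 of 5 were called by limma, and 0 had an unadjusted p under 0.05. Cxcl16, a membrane-bound chemokine and scavenger receptor of macrophages and endothelium, read 9.72, 9.90 and 10.46 in wildtype and 9.86, 9.99 and 10.03 in Foxf1+/- lungs, and its change of 0.00 ± 0.12 had a 95% interval from −0.25 to 0.25 (adjusted p = 0.998). Cxcl17, a chemokine of mucosal epithelium, read 8.66, 9.04 and 9.71 and 8.41, 9.003 and 9.47 (−0.07 ± 0.22, adjusted p = 0.917). Cx3cl1 (fractalkine), made as a membrane protein by endothelium and epithelium, read 7.09, 8.16 and 8.76 in wildtype and 7.29, 7.47 and 7.94 in Foxf1+/- lungs. For all 3 the groups overlapped, and for Cx3cl1 the change of −0.19 ± 0.14 (adjusted p = 0.556) was made of 0.08 in A and −0.46 in B. In experiment B both Foxf1+/- arrays, at 7.93 and 7.94, lay below all 4 wildtype arrays, which began at 8.11. A limma test for a difference between these changes gave an unadjusted p of 0.0494 (adjusted p = 0.999) for Cx3cl1, the 1 member under 0.05, beside 3.36% of all probes, and limma called 0 members and 0 probes for such a difference. Cxcl13, the B cell attractant that binds Cxcr5, stood at 6.65 to 7.35 in wildtype and 6.53 to 7.52 in Foxf1+/- lungs (0.19 ± 0.16, adjusted p = 0.619). Cxcl14, a chemokine of epithelia and fibroblasts, stood at 6.45 to 7.50 and 6.41 to 7.65 (−0.06 ± 0.25, adjusted p = 0.939).

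Most receptors read near the floor of the arrays, and 4 of 18 (Cx3cr1, Cxcr2, Ackr1 and Ackr4) had a mean at or above the floor limit. Limma called 0 of the 11 receptors tested, and an unadjusted p under 0.05 was found for Ccr8 (higher) and for Cxcr5 and Ccr6 (lower). Cx3cr1, the fractalkine receptor of monocytes and macrophages, read 7.91, 8.48 and 8.90 in wildtype and 7.70, 8.06 and 8.87 in Foxf1+/- lungs. The genotypes overlapped, with 3 of the 6 Foxf1+/- arrays below every wildtype array, and the change was −0.30 ± 0.23 (95% interval −0.81 to 0.20, adjusted p = 0.587). Cxcr2, the neutrophil receptor for Cxcl1 to Cxcl3, read 6.45, 6.69 and 7.55 and 6.42, 7.18 and 7.36, and its arrays followed the experiment. It was 0.75 lower in experiment B than in A (adjusted p = 1.66e-05), while the genotypes differed by −0.12 ± 0.08 (adjusted p = 0.522).

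Ccr8, a receptor of type 2 helper and regulatory T cells that binds Ccl1 and mouse Ccl8, read 5.90, 6.00 and 6.13 in wildtype and 6.12, 6.32 and 6.56 in Foxf1+/- lungs. The groups met at 6.12 to 6.13, in experiment B, and the 4 Foxf1+/- arrays of experiment A, from 6.25 upward, lay above all wildtype arrays. Its change of 0.25 ± 0.07 did not pass (unadjusted p = 0.00493, adjusted p = 0.0966), with 0.39 in A and 0.11 in B, and it passed with array weights (0.29, adjusted p = 0.0359). Cxcr5, the B cell receptor for Cxcl13, was the 1 member whose 6 and 6 arrays did not overlap, beside 1.72% of all probes. It read 6.16, 6.23 and 6.50 in wildtype and 5.96, 6.05 and 6.13 in Foxf1+/- lungs, with a change of −0.22 ± 0.06 that did not pass (unadjusted p = 0.00555, adjusted p = 0.102). A second tested probe of Cxcr5 gave −0.10 ± 0.05 (adjusted p = 0.387). Ccr6, the receptor for Ccl20 on B cells, dendritic cells and T cells, read 6.29, 6.52 and 6.86 in wildtype and 6.13, 6.19 and 6.47 in Foxf1+/- lungs (−0.25 ± 0.09, unadjusted p = 0.0157, adjusted p = 0.172), and its second probe gave −0.03 ± 0.06 (adjusted p = 0.867). Signals of Ccr8, Cxcr5 and Ccr6 lay near the floor, where the offset damps differences. Ccr2, Ccr4, Ccr7 and Cxcr3, receptors of monocytes and T cells, lay between 5.89 and 6.54 in all arrays, with fitted changes from −0.09 to 0.04.

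**Figure D5:**
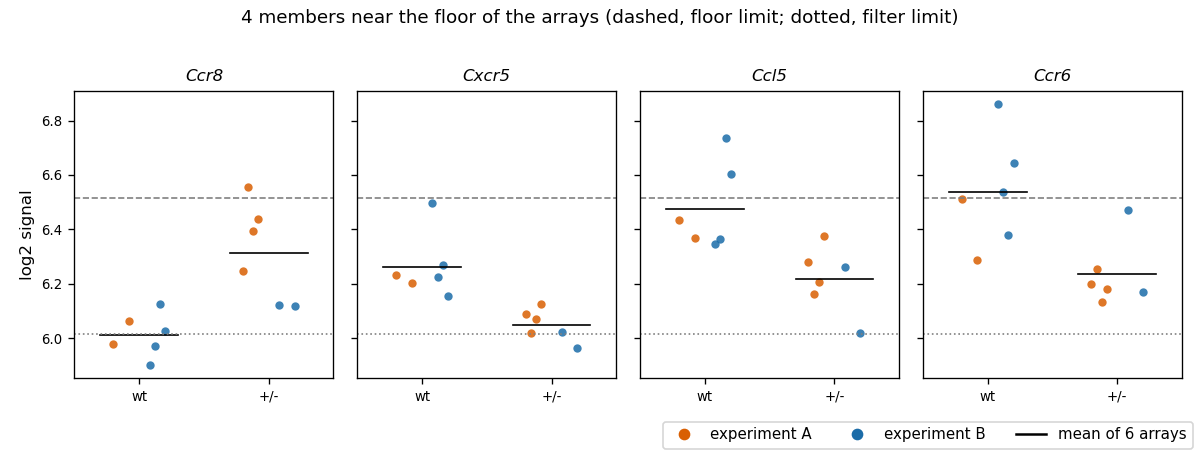
Log2 signal of Ccr8, Cxcr5, Ccl5 and Ccr6 in each array on 1 shared axis, coloured by array experiment, with the floor limit of 6.51 dashed and the filter limit of 6.01 dotted. In Cxcr5 the lowest wildtype array is at 6.16 and the highest Foxf1+/- array at 6.13, while the other 3 genes overlap.

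Both atypical receptors tested were above the floor limit, and 0 of 2 passed by limma. Ackr4, which scavenges Ccl19, Ccl21 and Ccl25, read 6.93, 7.11 and 7.33 in wildtype and 6.70, 7.01 and 7.11 in Foxf1+/- lungs (−0.17 ± 0.08, adjusted p = 0.362). The groups overlapped, and 3 dimmer probes of Ackr4 were also below 0, from −0.10 to −0.31, the lowest at an adjusted p of 0.0765. Ackr1, the Duffy antigen receptor of venules and red cells, read 6.57, 6.74 and 6.86 and 6.34, 6.71 and 6.93 (−0.04 ± 0.10, adjusted p = 0.909). Of the 15 other member probes tested, 0 were called by limma. Of the 6 family genes left out of the membership, limma called 4 lower in Foxf1+/- lungs, beside 1.22% of all probes. They were Ccl21a (−0.90), Ccl21c (−0.997), Cxcr4 (−0.69) and Ackr2 (−1.28).

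Array experiment moved more members than genotype did. Limma called 8 of the 39 members between experiments, with genotype in the fit, beside 42.2% of all probes. In experiment B over A, Cx3cl1 stood at 0.80, Ccl4 at 0.56, Cxcl1 at 0.50, Ccl27a at 0.39, Ccl11 at 0.34 and Ccr7 at 0.23, and Ccl9 stood at −0.43 and Cxcr2 at −0.75. Within experiment A alone and within experiment B alone limma called 0 members for genotype, against 10 and 56 probes in all.

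Receptors and their ligands are set side by side only as each gene's own change. For Cx3cl1 and Cx3cr1 the changes were −0.19 and −0.30, for Cxcl13 and Cxcr5 0.19 and −0.22, and for Ccl20 and Ccr6 −0.01 and −0.25, none of them called. Ccr1 and Ccr3, receptors for Ccl9 and Ccl11, were at 5.76 to 6.17 and 5.90 to 6.14 in all arrays and were not tested. By position in the RefSeq annotation, 32 members fell into 9 groups of neighbours with at most 3 other protein-coding genes between them. In the row of Ccl5, Ccl9, Ccl6, Ccl3 and Ccl4 fitted changes ran from −0.26 to 0.58, in that of Ccl2, Ccl7, Ccl11, Ccl12, Ccl8 and Ccl1 from −0.28 to 0.19, and in that of Cxcl3, Cxcl15, Cxcl1 and Cxcl2 from −0.03 to 0.29. Both signs occurred within each of these 3 rows. Of the other 6 groups, Ccl22, Cx3cl1 and Ccl17 were all below 0, as were Cxcl9 and Cxcl10, while Ccl26 and Ccl24 were both above 0, and none of these was called.

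In 41 RefSeq promoters of 37 members, the 250 bases before the start were searched on both strands for 7 motifs. The NF-kB letters were in 14.6% of them (Ccl1, Ccr3, Cxcl1, Cxcl2, Cxcl3 and Cxcl10) and in 1.21% of all 32851 promoters. The TATA letters TATAAA were in 26.8% and 12.4%, the ETS core AGGAAG in 43.9% and 29.5%, AP-1 (TGANTCA) in 12.2% and 6.75%, STAT (TTCNNNGAA) in 9.76% and 7.02% and C/EBP (TTGCNNAA) in 7.32% and 9.56%. The forkhead letters TGTTTAC, of the family to which Foxf1 belongs, were in 0 of the 41 and in 3.17% of all promoters, which says only that these letters are not in these windows. Of the 6 members with the NF-kB letters, 3 were tested, Cxcl1, Cxcl2 and Cxcl10, with changes of 0.29, 0.04 and −0.07.

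Other genes of the pathway were read from lists. Over all probes tested limma called 1.74% higher and 1.22% lower, and 9.07% and 7.45% had an unadjusted p under 0.05. Of 11 tested genes of the chemokine system outside the naming rule, limma called 0 higher and 1 lower (1 higher and 5 lower unadjusted). The lower gene was Dpp4, the surface peptidase that trims and inactivates several chemokines, at 11.52, 11.75 and 11.88 in wildtype and 10.59, 11.07 and 11.23 in Foxf1+/- lungs, which did not overlap (−0.85 ± 0.11, adjusted p = 0.00224). Of 20 genes of receptor signalling 0 were called by limma (unadjusted p under 0.05 in 7, of which 2 were higher and 5 lower), and the G protein regulator Rgs1 passed when wildtype replicate 5 was left out (adjusted p = 0.0467). Of 14 inducing cytokines 0 were called (unadjusted p under 0.05 in 4, all lower), with Csf2 at −0.49 ± 0.12 (adjusted p = 0.0547) and Il1b at −0.49 ± 0.14 (adjusted p = 0.0793). Of 12 NF-kB genes 0 were called (1 higher and 1 lower unadjusted). Of 9 interferon response genes 1 was lower, the transcription factor Irf1 (−0.47 ± 0.10, adjusted p = 0.0299), and 0 were higher (0 higher and 2 lower unadjusted).

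Markers of the cells that chemokines attract gave levels beside these values. Their called counts stand beside 1.74% of all probes higher and 1.22% lower. Of 10 neutrophil markers tested 1 was lower, the granule protein Ltf (−1.05 ± 0.23, adjusted p = 0.0308), with 0 higher and 3 lower unadjusted. The mean level of the neutrophil list was 8.39 to 8.83 in wildtype and 8.11 to 8.48 in Foxf1+/- lungs. Of 3 basophil markers, 2 were tested and both were higher, Prss34 and Cd200r3, while Mcpt8 lay at the floor (5.94 in wildtype and 5.97 in Foxf1+/- lungs) and Cd200r3 was also under the floor limit, with a list level of 6.13 to 6.26 in wildtype and 6.60 to 6.92 in Foxf1+/- lungs. Limma called 0 of 3 monocyte, 0 of 7 dendritic cell, 0 of 7 T and NK cell and 0 of 5 B cell markers, with 1, 2, 0 and 1 of them at an unadjusted p under 0.05. The T and NK cell level was 8.06 in wildtype replicate 5 and at most 6.42 in the other arrays. Lung identity was clear from 8 alveolar epithelial markers, whose mean level was 12.23 to 12.88 over all arrays with 0 called by limma (0 higher and 1 lower unadjusted). The part of these cells in the member values was not tested.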

How the data were processed

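Whole-lung RNA of 12 newborn mice was profiled, 1 lung per array. The authors deposited raw probe intensity on a linear scale, not normalized, and processed log2 values, which per the study's methods passed through lumi (robust spline normalization, variance-stabilizing transformation) and ComBat, which took out the difference between 2 array experiments (versions: not given in the sources used here). Medians of the deposited log2 columns were 7.18 to 7.19. To match raw and processed columns, the brightest probes were ranked within each array. Each probe's mean rank over the arrays was then subtracted. These rank deviations correlated at r = 0.638 or more for columns of the same lung, and at 0.551 or less for different lungs. Of 45281 probes, 18 with damaged cells were left out.

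Intensities were corrected with normexp (offset 50), quantile normalized and expressed as log2 (limma 3.58.1, R 4.3.3). Probes with a mean above the 25th percentile were kept, 33947 in all. Experiments A and B are a 2-means split of the arrays on raw signal percentiles (mean silhouette 0.733). Limma fitted genotype and experiment, with both sides tested, an adjusted p of 0.05 as threshold and 95% intervals. The table holds no detection p-values. A floor limit of 6.51 was set 0.5 above the filter limit of 6.01 after the data were seen. Probe names came from the platform annotation (34874 intact probes with 1 symbol, 18 with several, 10371 with none), and promoters from RefSeq.

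The fit was tested on simulated data (33947 probes, 6 arrays against 6). It found 61.8% of the probes given a log2 change of 0.5, 90.9% of those given 1 and 100% of those given 2, and made 8 false calls. The changed probes were taken only from those with a mean above the median of all probes. Noise was drawn independently for each probe and array, at a fraction of the probe's observed SD. These rates therefore do not describe how often a change would be found in the members, whether near the floor or brighter. Named genes were the members called, those with an unadjusted p under 0.05, the 10 brightest, the brightest of each role group, members with an array far from its group, and called genes of the other lists, at most 4 per list, with further genes added after their values were seen. Members and lists were chosen with earlier results of these data known. Alternatives were no background correction, median scaling, the authors' processed values, no filter or a stricter one, other blocks, the thymocyte level as a covariate, array weights, the methods' t-test, other probe choices and leaving out each array.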

Additional observations from a re-analysis of the deposited data

Results flagged for a closer look

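In 7 of 80 groups of 6 arrays tested, the highest or lowest array lay far from the rest of its group. The gap rule marks about 1 in 20 groups whose values come from 1 normal distribution. Each group here mixes both array experiments, so that rate need not hold. Of the 7, 4 were the same array, wildtype replicate 5. There Ccl25 read 9.606 (next array 6.851), Cxcl9 6.863 (6.109), Cxcl10 6.948 (6.333) and Cxcl15 14.617 (14.261). Wildtype replicate 3 read 6.496 for Cxcr5 (6.269). Foxf1+/- replicate 5 read 6.472 for Ccr6 (6.253) and 5.921 for Ccl17 (next lowest 6.212). Without wildtype replicate 5 the fitted changes were 0.13 for Ccl25, 0.06 for Cxcl9, 0.03 for Cxcl10 and 0.02 for Cxcl15, and none of the 4 was called with or without it.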

How the results depend on the processing

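The count of members called, 1 in the fit reported, was 0 with median scaling, without the filter, without the experiment block and with the replicate block, 2 with array weights (Ccl9 and Ccr8), 1 under the other alternatives and 0 to 1 when each array was left out. The labels do not say that lungs with the same replicate number are paired. Their deviations correlated at 0.213 to 0.483 in the 4 pairs that share an array experiment and at −0.486 and −0.311 in the 2 that do not, so pairing and experiment cannot be told apart by this check. With the replicate block in place of the experiment 724 probes were called, and Foxf1 was at −0.73 (adjusted p = 0.0946). The count over all probes, 1007, was 501 without the experiment block, 1579 by the methods' t-test and 401 to 1112 when each array was left out (wildtype replicate 1 left out, 431; Foxf1+/- replicate 5 left out, 446; Foxf1+/- replicate 6 left out, 401). Foxf1 was called under every alternative except without the experiment block (−0.73, adjusted p = 0.184) and with the replicate block, and it ran from −1.07 to −0.89 when each array was left out. The cause of these changes was not tested. Of the 39 members tested, 19 changed sign under at least 1 alternative, none of them called, and 2 were called under at least 1. A difference of genotype effect between experiments was called for 0 members in each alternative run. Over all probes it was counted in the fit reported only, where 0 were called. Precision is limited by 6 arrays per genotype, by the inferred experiment split and, for 29 of the 50 members, by signal near the floor.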
